A study of Drosophila melanogaster with 3 samples.

Results

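The bunched (bun) locus on arm 2L of Drosophila melanogaster is described here through the binding of Yorkie (Yki) in S2 cells. The locus was taken as the window from 12455000 to 12547999 of the dm3 build, and its members are all listed Yki intervals whose midpoint lies inside that window. There were 38 such intervals, of 897 on arm 2L and 3990 in the whole list. The window was proposed because many intervals, some of them high, were already known to lie there. The number, height and density of its intervals are therefore the values that chose it, they are given as a description, and no test was made on them.

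S2 is an established cell line derived from Drosophila embryos and grown in culture. The study held 2 ChIP libraries made with an antibody against Yki (anti-Yki) and 1 input library that received no antibody; all 3 came from formaldehyde-fixed S2 cells, and the labels give no genotype change or treatment. The authors deposited 1 list of intervals and 1 density track, and the track's header joins codes for a pair of libraries with an input code. None of those codes appears in the sample labels, so reading the track as the 2 ChIP libraries pooled, less the input, is an assumption. No value per library was available, so nothing below has an error between libraries, and the depth of each library is unknown. Titles, antibody and cell line entries were followed for the groups; all of these name Yki or input in S2 cells. The description fields go against them: for both ChIP libraries they name an embryo ChIP of another protein, GAF, and for the input an embryo ChIP of Yki. Which entry is right could not be checked from the files, so the protein measured is Yki as far as the titles go.

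Yki is the transcriptional coactivator that the Hippo pathway restrains. When the pathway is off, Yki enters the nucleus, is held on DNA by partners such as the TEAD-family protein Scalloped, and turns on genes for growth and survival. The gene bun encodes the Drosophila members of the TSC22 domain family, relatives of mammalian TSC22D proteins. It is a long gene with several promoters. The long protein form, BunA, is made from the distal promoter and promotes growth of cells and organs, whereas the short forms come from promoters farther inside the gene and do not share that activity.

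In the Release 6 gene table of RefSeq, which belongs to another build and was used only for names and order, bun had 10 transcripts. That table placed 5 other genes within the span of bun, in the order mir-967 (a microRNA), t-cup, CG43051, snoRNA:CG43051-a and lncRNA:CR42746, where the last lies nearest the end taken as distal. The neighbours outside were the pseudogene CR17024 at the low-coordinate end and lncRNA:CR44598 beyond the distal end. The distal promoter of bun was taken to be at the high-coordinate end of the window, since the gene is read from high to low coordinates. No dm3 annotation or sequence was used, so no distance to a start site was measured and no interval was assigned to a particular promoter or to one of the nested genes.

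Density is given in the authors' own score, which was smoothed and had background subtracted, and which was sampled once for each 100 bp. The height of an interval is the highest sample inside it. To give the score a scale, short isolated bumps of the track were summed: the most frequent sum was 4.98 (1153 of 3007 bumps above 0 within 2%), and this was taken as the sum left by 1 ChIP tag. An interval's summed density divided by 4.98 is called its net tags, that is, ChIP tags less the weighted input. Since net tags are a difference, the square root of their number is the least counting error they can have, and it covers counting error only. Smoothing carries part of a tag's density past the edge of an interval, and that part is not counted for the interval. Where it reaches a neighbouring listed interval, it is counted in that neighbour.

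The highest Yki signal of bun stood at the distal end, in a pair of intervals 325 bp apart. The outer one, at 12545099 to 12546743, reached a height of 1877 at 12545953 and held 2790 net tags with a counting SD of at least 52.8. The inner one, at 12542996 to 12544773, reached 1567 at 12543353 and held 2136 net tags with a counting SD of at least 46.2. By height they ranked 1 and 5 among the 897 intervals of 2L, and the inner summit had 0.84 times the height of the outer one.

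The 2 summits lay 2.6 kb apart and the track separated them. Between the intervals the density fell to 68.8. Around the outer summit it was 866 at 300 bp towards the gene body and 1251 at 300 bp on the outer side, and at 1 kb it was 74.2 and 86.4. Around the inner summit it was 593 and 792 at 300 bp, and 74.4 and 199 at 1 kb, so that the inner interval had a shoulder facing the outer one. The widths at 50% of the height were 673 bp for the outer and 555 bp for the inner summit.

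Together the pair held 33.6% of the net tags of all bun intervals. A height of at least 1000 was reached by 3 bun intervals, against a background of 1.45% of all 2L intervals, which is 13 in number. Only the distal pair, 2 of those 13, had another interval of that height within 5 kb. The other 93 kb windows of 2L held at most 2 such intervals, and 8 of the 245 held any.

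**Figure D1:**
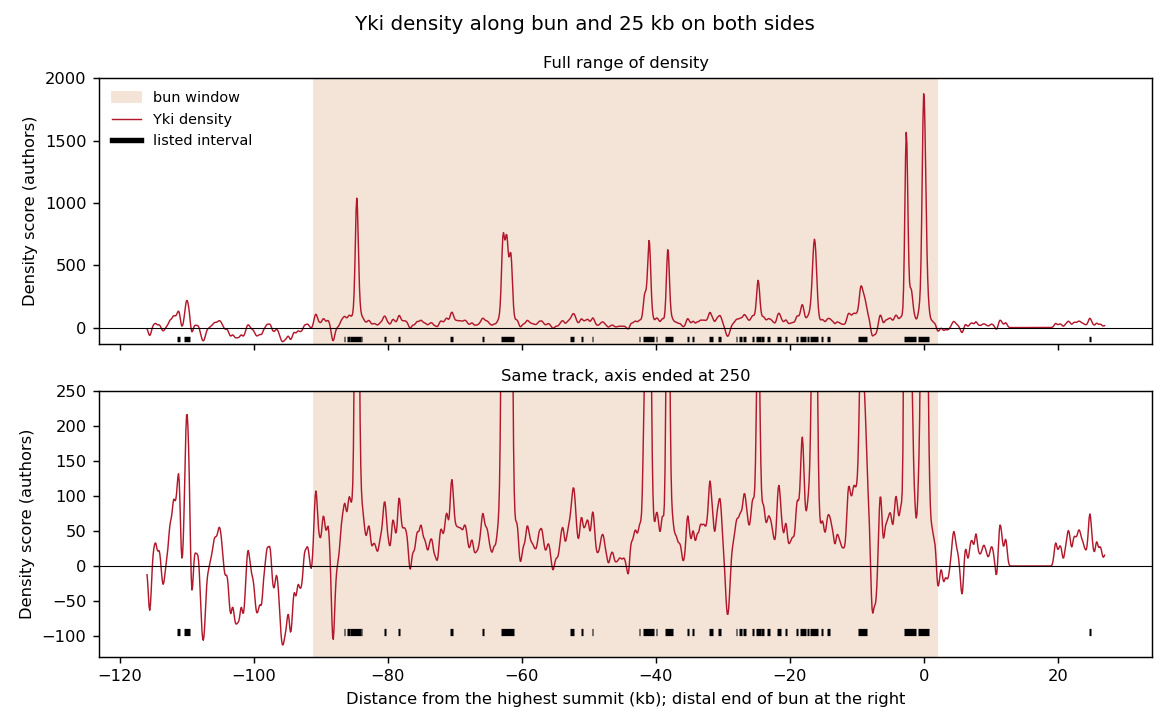
The Yki density score (y axis) against distance from the highest summit in kb (x axis), for bun (shaded) and 25 kb on both sides; black bars are listed intervals, and the lower panel shows the same track with its axis ended at 250. The highest summits, at 1877 and 1567, stand beside each other at the right edge of the shaded window, and the track between the intervals lies above 0 along most of the gene.

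The 38 intervals fell into a high and a low class with nothing between them. The high class held 9 intervals, from 336 to 1877, and the low class held 29 intervals, from 50.4 to 185. The highest of the low class, 10th in bun, was the interval at 12527495 to 12528450, which held 252 net tags. No bun interval had a height between 185 and 336, whereas 139 of the 859 other intervals of 2L (16.2%) did. A height of at least 300 was reached by 9 of 38 bun intervals, or 23.7%, against a background of 15.1% of all 2L intervals. Height was part of what chose the window, so nothing is read from the count.

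The median bun interval was lower than the median interval elsewhere on the arm. The median height was 98.2 over the 38 bun intervals and 124 over the 859 others. At least 100 was reached by 47.4% of bun intervals and by 68.9% of the others, or 68% of all 2L intervals. Neighbouring intervals are not independent, and these heights too are a description. Median widths were 418 bp in bun and 420 bp elsewhere.

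The other 7 high intervals were spread through the gene. At the low-coordinate end, opposite the distal promoter, the interval at 12460382 to 12461933 reached 1038 and held 1357 net tags. Its summit lay at -84.6 kb, counted from the highest summit, and its width at 50% of its height was 576 bp, close to those of the distal pair. It ranked 13 by height on 2L. Low intervals flanked it on both sides: those at 12459437 to 12459671 (89.8) and 12459854 to 12460317 (99.3) lay below it, and that at 12461993 to 12462200 (109) lay above it. The last had no maximum of its own. Around its highest sample the density fell from 142 at 600 bp to 91.4 at 800 bp from the 1038 summit.

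A broad interval at 12482817 to 12484821 differed in shape from the rest. At 2005 bp it was the widest of bun and the only one of at least 2 kb. It had 3 local maxima: 762 at its summit, 747 at 400 bp and 602 at 1000 bp towards the distal end. The dips between them were shallow, with 703 at 200 bp and 567 at 800 bp. Under a rule that asked a maximum to stand out by 0.25 of the height, it had only 1. Its width at 50% of its height was 1665 bp, whereas the other 8 high intervals had a single maximum each. By height it was 4th in bun, but with 2311 net tags (counting SD at least 48.1) it was 2nd, above the inner interval of the distal pair with 2136. Its plateau was lower and longer than either distal summit.

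In the middle of the gene, intervals at 12504072 to 12505714 and 12507393 to 12508614 reached 699 and 625, with summits 2.8 kb apart. They held 1151 and 762 net tags. The first of them was lopsided, with a density of 292 at 500 bp on its low-coordinate side and 159 at 500 bp on the other. Towards the distal end followed an interval of 762 bp at 12520880 to 12521641, which reached 379, and one at 12528953 to 12530224, which reached 708 with 1148 net tags. The last before the distal pair, at 12536225 to 12537475, was the lowest of the high class at 336 and had a wide top, with a width at 50% of its height of 1234 bp.

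Apart from the pair in mid-gene, the high intervals lay closer together towards the distal end. From the low-coordinate end upward, neighbouring high summits were 21.9, 21.7, 2.8, 13.5, 8.4, 7, 6.7 and 2.6 kb apart. Of the 9 high intervals, 7 lay in the distal 46.5 kb of the window. That stretch also held 26 of the 38 intervals and 64.8% of the window's density above 0, and its mean density was 146, against 79.4 in the other 46.5 kb.

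**Figure D2:**
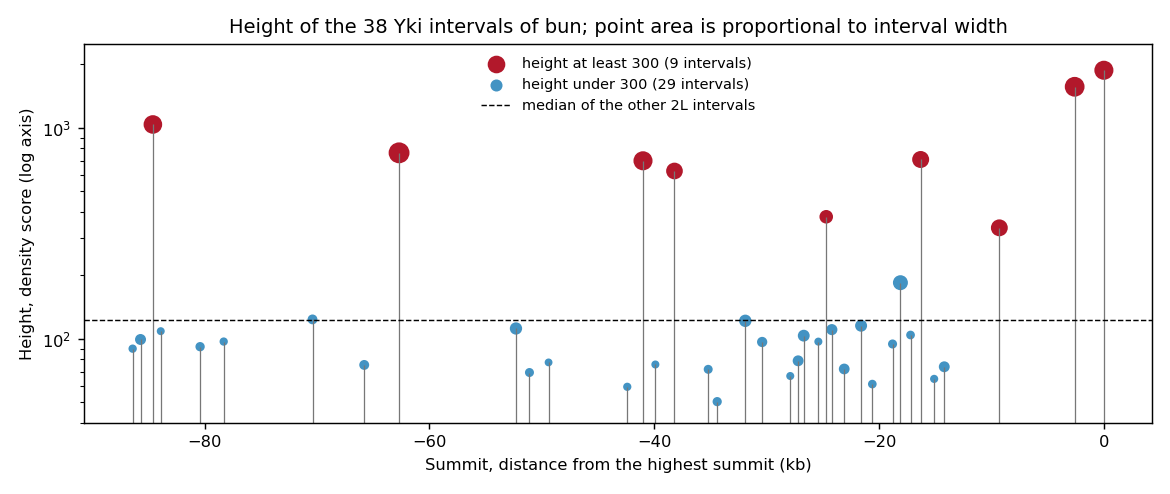
Height of each of the 38 bun intervals (y axis, density score on a log axis) at the position of its summit (x axis, kb from the highest summit); point area is proportional to interval width, and the dashed line is the median height of the other 2L intervals, 124. The 9 high intervals, from 336 to 1877, are spread along the gene and stand apart from the 29 low ones, which end at 185.

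All intervals of bun of at least 1 kb were high ones. A width of at least 1 kb was reached by 8 bun intervals, 21.1%, against a background of 13.2% of all 2L intervals, and all 8 belonged to the high class. The remaining high interval was the 762 bp one. The median width was 1552 bp in the high class (range 762 to 2005 bp) and 302 bp in the low class (range 200 to 956 bp). On the rest of 2L the intervals of at least 300 had a median width of 994.5 bp and those below had 376 bp. In bun the 9 high intervals held 87.1% of all net tags inside intervals, whereas on the rest of 2L the 126 intervals of at least 300 held 55.0%.

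**Figure D3:**
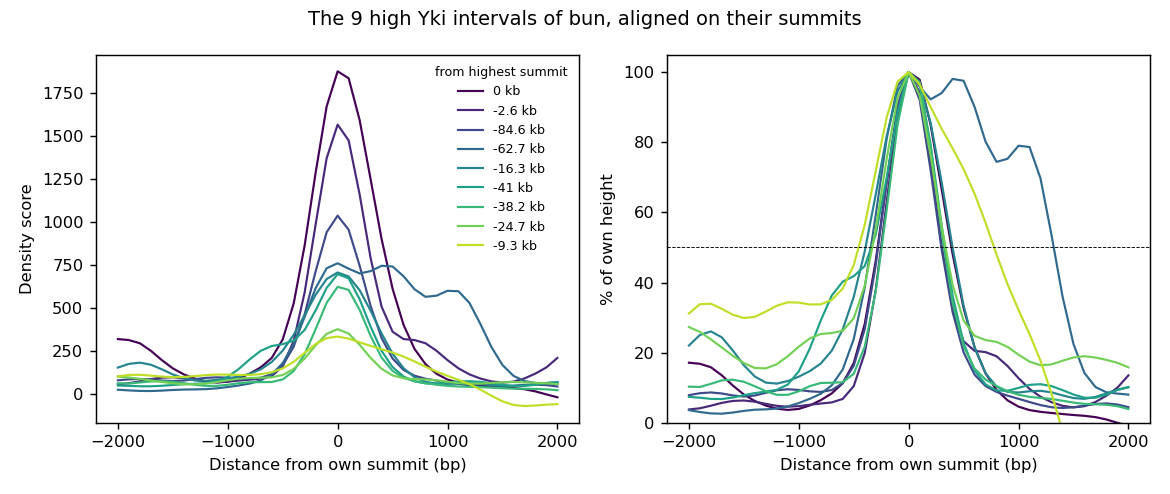
The 9 high intervals of bun aligned on their own summits (x axis, bp from the summit; positive towards the distal end), as density score (left) and as percent of each summit's height (right); colours name each summit by its distance from the highest one, and the dashed line marks 50%. Most profiles share a width of 555 to 793 bp at 50% of the height. The exceptions are the summits at -62.7 kb, with 1665 bp and 3 maxima parted by shallow dips, and at -9.3 kb, with 1234 bp.

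Of the 29 low intervals, 11 (37.9%) lay within 1 kb of a high interval and the other 18 did not. The same distance held for 60 of the 733 low intervals on the rest of 2L (8.19%), and the background was 9.32% of all low intervals of 2L. Some of these low intervals had no maximum of their own and lay on the slope of a high summit. Around the highest sample of that at 12521710 to 12522186, density fell from 149 at 400 bp to 94.0 at 600 bp from the 379 summit. Listed intervals of this kind were not counted apart, so they need not be separate sites. A window chosen for many intervals, high ones among them, has short distances between them by that choice, so these distances are a description. Neighbouring midpoints were a median of 1364 bp apart in bun (range 532 to 9702 bp) and 5291 bp over all of 2L. Between edges, 16 of the 37 gaps in bun were of 500 bp or less (43.2%), against 20.9% of all 2L gaps, and only 4 gaps in bun exceeded 5 kb. Joining intervals across such short gaps left 22 separate regions in bun.

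The 21.3 kb from 12510595 to 12531908 held a run of 19 intervals, 17 of them low. The run was taken to begin beyond the pair of high intervals in mid-gene. It surrounded the high intervals with summits at -24.7 and -16.3 kb. No gap length set its start, since the gap before it, 1980 bp, was shorter than a gap of 2201 bp inside it. The numbers of high and low intervals in the run depend on that choice. The third 9.3 kb bin from the distal end held 9 intervals, the most of any bin, with 1 of them high. The fourth held 6, none of them high, and none above 122. The longest gap between intervals in bun was 8396 bp, between 12484821 and 12493218, just beyond the broad interval.

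Many of the low intervals stood little above their surroundings. The flank of an interval is the mean density 2 to 5 kb away on both sides. In bun, 13 of 38 intervals were no higher than their flank (34.2%), against a background of 7.13% of all 2L intervals; all 13 were in the low class, from 50.4 to 115. Other listed intervals fall within these flanks. With samples inside listed intervals left out of the flanks, 4 of 38 bun intervals and 4 of the 859 others (0.47%) were no higher than their flank. Against those flanks the low class of bun stood a median of 45.0 higher, and the low intervals on the rest of 2L stood 101 higher. The flanks themselves differed: their median was 46.4 for the low class of bun (range 23.2 to 92.6) and 17.5 for low intervals elsewhere.

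The Yki density between the intervals was above 0 along nearly the whole gene. Over the window's 930 samples the mean density was 113 and the median 56.6, and 95.6% of samples were above 0. On the rest of 2L the mean was 3.58, the median 2.44, and 55.4% were above 0. Over 500 bp from any interval, 444 samples of the bun window had a mean of 33.6 and a median of 35.4, with 90.8% above 0. The corresponding 217097 samples on the rest of 2L had a mean of -2.69 and a median of 1.03, with 53.1% above 0.

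The level between intervals reached the height of some listed ones. Outside all intervals, 315 samples of the window (45.3%) were at or above 50.4, the height of the lowest bun interval, against 4.30% of such samples on the rest of 2L. No margin was kept here, so the 315 include slopes just outside listed intervals, up to 311. Over 500 bp from any interval, the 90th percentile of density was 65.9 in the window and 30.4 on the rest of 2L. Among the 315 samples were 24 local maxima that the list did not hold, the highest at 115. Such maxima were not counted on the rest of 2L. Maxima of this height were thus found both on and off the list. Because only density after subtraction was available, the part of input in this level was not tested.

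Density fell below 0 at 41 samples of the window, in 7 runs. The deepest, -105, lay at 12457853, below the first interval of the low-coordinate end. Runs of -69.1 at 12516653 and -67.5 at 12538353 lay 0.52 and 0.58 kb from the nearest interval edge. In 3 others the lowest value was between -4.35 and -11.2, and the last run began at the final sample of the window and went on past it. The longest stretch with no sample below 0 ran for 21.1 kb, from 12469453 to 12490453, and included the broad interval. Such a length was not unusual for the arm. On 2L 14 stretches, this one included, were at least that long, and the longest ran for 64.4 kb.

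**Figure D4:**
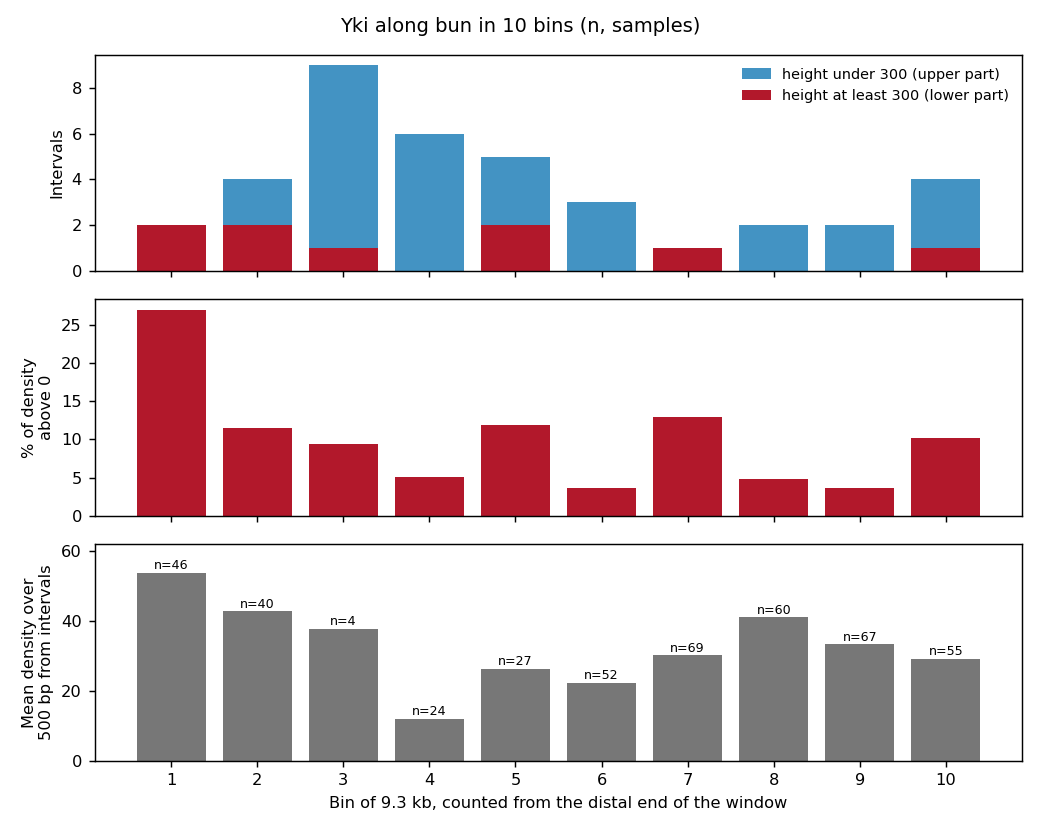
The bun window in 10 bins of 9.3 kb counted from the distal end (x axis): intervals per bin split by height at 300 (top), percent of the window's density above 0 (middle) and mean density over 500 bp from any interval, with n samples (bottom). The bin at the distal end holds 2 of the 38 intervals and 26.9% of the density, the third bin holds the most intervals, and the mean density between intervals is above 0 in these 10 bins, although with 20 narrower bins the seventh lies below 0 (-32.3).

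Along the gene the 2 measures, number of intervals and amount of density, did not run together. The bin at the distal end held 2 intervals, 5.26% of the 38, and 26.9% of the window's density above 0, with a mean density of 307. The third bin held 9 intervals and 9.39% of the density, with a mean of 107. The seventh, with the broad interval alone, held 12.9%, and the tenth, at the low-coordinate end, held 10.1%. The lowest shares were 3.60% in the sixth and 3.71% in the ninth bin. Between intervals the mean density was 53.8 in the bin at the distal end (46 samples) and 12.0 in the fourth (24 samples), the lowest of the 10; the third had only 4 samples so far from an interval. With 20 bins, the mean between intervals was -32.3 in the seventh from the distal end (12 samples), so the sign in a bin depends on its size.

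The outermost intervals of bun were followed on both sides by stretches with no listed interval. Their lengths were counted from those intervals, so a part of each stretch lies inside the window. Beyond the distal end the next interval, at 12570647 to 12570921 with a height of 74.5, came after 23.9 kb. Below the low-coordinate end the next, at 12435600 to 12436463 with a height of 217, came after 23.0 kb. The intervals just inside both ends had heights of 1877 and 89.8. Gaps of that length were not rare on the arm, since 221 and 228 of its 896 gaps were longer.

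The density changed sharply at the distal end. In the last kb of the highest interval it averaged 1171, in the kb after its end 71.7, and in the following 2 kb -11.6 and -18.0. Over 500 bp from the intervals at its ends, the distal gap had a mean of 14.8, between -39.9 and 58.7. Of these 229 samples 55, between 12.5 and 17.9 kb past the interval's end, were at 0 within 0.001; the mean of the others was 19.5. The bun window had 0 such samples, and the rest of 2L had 3.85%.

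At the low-coordinate end the density was uneven. The window begins at 12455000 and its first interval at 12459437, so the nearest of these values lie inside the window. In the kb before the first interval it averaged 41.1, and 1 to 2 kb before it -57.1. At 2 to 5 kb before it the means per kb were between 49.4 and 56.8, and at 7 to 10 kb between -87.3 and -59.2. Over 500 bp from the intervals at its ends, the gap had a mean of -16.9. Measured at that distance, both gaps had lower means than the samples between intervals inside bun (33.6). The gaps reach into the window, so these are not separate sets. At the low-coordinate end 39 samples, and at the distal end 8, entered both the gap mean and the 33.6.

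Compared with windows of the same size on 2L, the bun window ranked 1 by number of intervals, by mean and by median density, and 2 by the number of intervals of at least 100. On a grid of 246 windows of 93 kb that includes the bun window, bun held 38 intervals, and the other 245 held a median of 2 (quartiles 1 and 5, highest 31), with 60 holding none. Bun held 9 intervals of at least 300, against at most 5 in another window. Its intervals covered 25.6% of its length (23803 bp), and the highest other window had 21477 bp. It also ranked 1 by density over 500 bp from intervals, by highest interval and by percent of samples above 0. By its lowest sample it did not stand out, since 82 other windows fell no lower than its -105. With 0.40% of the samples of 2L it held 4.24% of the intervals and 2.89% of the density above 0.

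The margins over the next windows differed from measure to measure. By mean density bun had 113 and the next window, from 86000 to 178999, had 70.3. By median density the same windows had 56.6 and 56.1, so that bun and that window were nearly level once the high intervals weighed no more than other samples. The grid was placed on the bun window. Other placements were tried for the number of intervals only, not for the ranks by density, by length covered or by intervals of at least 300. Over 500 bp from intervals bun had 33.6, and the highest other window, from 10223000 to 10315999, had 24.5 with 3 intervals. Among intervals of at least 100, bun held 18, level with the window from 86000, and the window from 458000 to 550999 held 21.

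The 3 windows with the next most intervals resembled bun to different degrees. The window from 86000 held 31 intervals with a highest of 984, and 88.3% of its samples were above 0. The window from 458000 held 26 intervals with a highest of 1729.7 and a mean density of 59.6, but between intervals its mean was -21.1 and its lowest sample -253. The window from 7061000 to 7153999 held 24 intervals, of which 1 reached 300, and its mean between intervals was 22.3. A high level between intervals therefore did not accompany every window rich in intervals.

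The windows on both sides of bun were unlike it. That at the low-coordinate side held 13 intervals with a mean density of 18.7 and a mean between intervals of -0.37. That on the distal side held 8 intervals with a mean density of 31.4 and 13.7 between intervals. The 3 windows together, bun and its neighbours, are not independent of one another, and no test was made between windows, since bun was picked for its intervals.

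**Figure D5:**
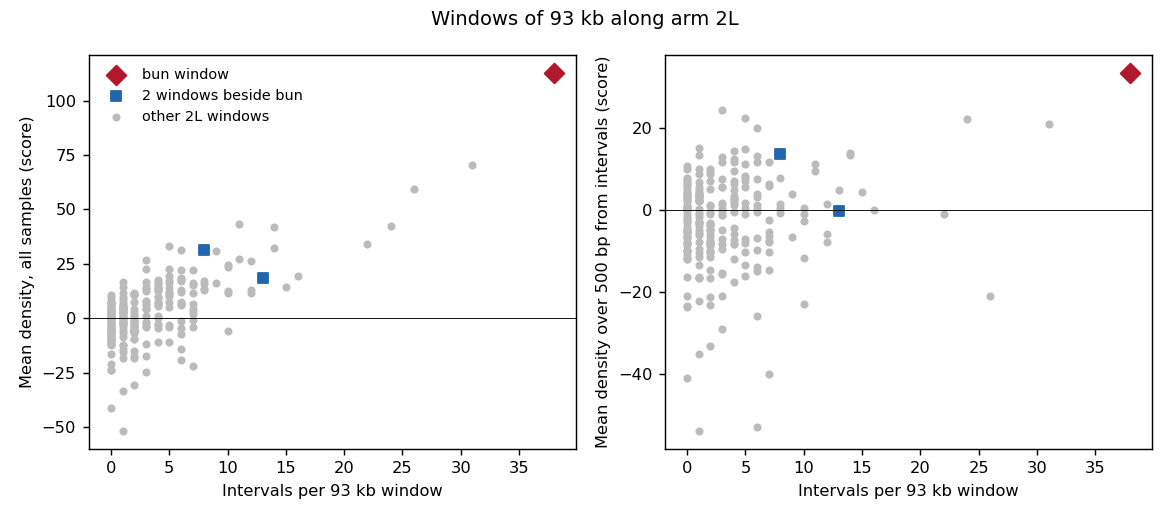
Mean density of all samples (left) and of samples over 500 bp from any interval (right) against the number of listed intervals, for 246 windows of 93 kb on 2L; the diamond is bun, squares are the 2 windows beside it, and grey points are the others. Bun lies at 38 intervals with means of 113 and 33.6, at the upper right of both panels, and windows with over 20 intervals lie on both sides of 0 in the right panel.

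Stretches elsewhere on the arms with similar numbers of intervals gave a further comparison. Chaining midpoints less than 10 kb apart gave 6 stretches with at least 25 intervals on the chromosome arms, of which bun had the most. The stretches differed in length: bun held 38 intervals in 87.3 kb. Per kb, more were held on 3R (26 in 54.4 kb), 2R (27 in 56.6 kb) and elsewhere on 2L (25 in 54.8 kb). Both stretches on 3L held fewer per kb. A height of at least 300 was reached by 9 intervals in bun, by 13 in the 3L stretch from 603789, and by 2 to 7 in the others. Outside intervals by 500 bp the mean density was 34.5 in the bun stretch, and in the other 5 it lay between -65.1 and 22.7. Over all samples the order was another: the mean was 118 in the bun stretch, below 3 of the other 5 (123, 177 and 239), and the median of 57.4 was the lowest of the 6. The highest summits of 2 other stretches, 2333 on 3R and 3173 on 3L, also exceeded the 1877 of bun. The lowest sample was -69.1 in the bun stretch and between -520 and -239 in the other 5. The median height was 98.2 in bun and between 111 and 313 in the others. These stretches were chosen by their intervals, and the values are a description.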

How the data were processed

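Yki ChIP libraries (n = 2) and 1 input library of S2 cells were grouped by sample title. The submitters' processing notes name the dm3 build and the tools Bowtie, BWA and CASAVA 1.7.0; their roles and the interval caller are not stated there. The authors deposited an interval list without scores and a density score, per the file headers smoothed and background-subtracted, and taken to be pooled over libraries. Starts were raised by 1. A density sample belonged to an interval if its centre lay inside. Windows of 93 kb ran on a grid through the bun window. Single-tag sums came from bumps of at most 17 samples that returned to 0 within 0.001. Functions were tested on simulated data. Calculations used Python 3.11.15, numpy 2.4.6, pandas 2.3.3, scipy 1.17.1 and matplotlib 3.10.9.

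The window, members and lists were chosen with earlier results of these data known. By rule, all bun intervals are given by count and range, the 10 highest, the lowest trough, the 3 windows with the next most intervals, both neighbouring windows and the intervals at both edges are named; other items named were chosen after their values were seen. The planned motif search was not run, since no promoter sequence was used here. With 1 profile of unknown depth, no test between groups was made.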

Additional observations from a re-analysis of the deposited data

How the results depend on the processing

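The alternatives for density outside intervals, for the share of 2L density and for flanks were chosen after seeing the data. Of 30 alternatives, 19 left a value within 1.5 times of that reported and 11 moved it further. None of these 30 reversed a sign, but most of them are counts, ranks or shares, which cannot be negative. The mean density between intervals per bin was not among them. It was above 0 in each of the 10 bins but -32.3 in the seventh of 20 bins. The rank of bun by mean density stayed 1 under its 3 alternatives, all on the grid placed through the bun window. Ranks by density, by length covered and by intervals of at least 300 were not examined with windows placed otherwise. Its rank by interval count stayed 1 on a shifted grid, with windows every 1 kb and with joined intervals, and became 2 among intervals of at least 100. The 38 intervals became 22 when joined across 500 bp, 18 at a height of at least 100 and 10 at or above the list's median height. Mean density moved to 56.6 as a median and to 45.9 outside intervals, and the height of the highest interval to 869 as a mean over it. The share of intervals at the distal end was 15.8% with 5 bins, and the spacing was 857 bp between edges. The share of 2L density was 0.76% over 500 bp from intervals, where bun held 0.20% of the 2L samples. The main share, 2.89%, went with 0.40% of all 2L samples. With flanks free of listed intervals, 4 intervals were no higher than their flanks. Joining, height limits, samples kept away from intervals and wider bins change which intervals or samples enter by construction; for the other moves the cause was not tested. No paired analysis was possible because the track holds 1 profile only. For the same reason no library was left out, and the motif alternative was not run. Unknown depth sets no limit of detection.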
